A study of Homo sapiens with 4 samples.

Results

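Nonmuscle myosin IIa and a set of actin and microtubule proteins were followed by Reverse Phase Protein Array (RPPA) in LN229 cells, an established human glioblastoma line, after a short exposure to salmon calcitonin (sCT), a peptide ligand of the calcitonin receptor. RPPA spots lysates onto slides, each of which is stained with a single antibody to a protein or to a phosphorylated site. The groups were untreated cells (n = 2), whose labels give a time of 0 min, and cells given 300 nM sCT for 60 min (n = 2), so that sCT and time in the experiment cannot be told apart. Every row of the panel for myosin IIa, beta-actin, alpha-tubulin, PAK1, Cdc42, VASP, stathmin and MTSS1 was taken, which gave 9 of 440 antibodies, and ROCK1, which was also looked for, was not analysed here. The proteins were chosen by name, but with the log2 fold changes of the same 4 samples already known and with the fall of phosphorylated myosin IIa as the starting point. Their fold changes are therefore a description and not independent evidence of a response. The rows are Myosin-IIa_pS1943, the site antibody, and Myosin-IIa, both for the product of MYH9, with b-Actin (ACTB), D-a-Tubulin, PAK1, Cdc42 (CDC42), VASP, Stathmin-1 (STMN1) and MTSS1. The labels do not spell out the D of D-a-Tubulin, and it is kept as written.

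Nonmuscle myosin IIa is the motor that pulls on actin filaments, and its assembly into bipolar filaments gives a cell contractile tension, stress fibers and a retracting rear. Serine 1943 lies in the tailpiece of the heavy chain, past the coiled coil, and is a known casein kinase 2 site whose phosphorylation is linked to disassembly of myosin filaments. Cdc42 is a small GTPase that drives filopodia, and in its GTP-bound form it activates the kinase PAK1, which acts on actin and myosin regulators. VASP extends actin filaments at their growing ends, MTSS1 binds actin and curves the membrane, and stathmin takes up tubulin dimers and destabilizes microtubules. The calcitonin receptor signals through cAMP and protein kinase A, and VASP and stathmin are known substrates of that kinase, but their rows on this panel are total-protein antibodies and carry no site.

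The deposited levels are linear ratios with a median close to 1 in each sample. A level compares samples for the same antibody, and does not compare antibodies with each other or show whether a protein is present, so the identity of the line could not be checked from them. Signal over background is unknown. Untreated replicates correlated with Pearson's r = 0.790 over the 440 antibodies, which are not independent replicates, and sCT replicates with r = 0.975. The value of r depends on how widely antibodies spread, from 0.426 to 3.85 without sCT and from 0.0450 to 6.88 with it. It therefore does not compare the agreement of replicates between the groups. Replicates of an antibody had a median SD of 0.05 log2 units without sCT and 0.04 with it. For the cytoskeleton antibodies the SD reached at most 0.07 log2 units without sCT, for VASP, and 0.15 with sCT, for PAK1. Groups were compared on the log2 scale with limma over the whole panel, and an antibody was called when its Benjamini-Hochberg adjusted p was under 0.05.

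Both myosin IIa antibodies, PAK1 and VASP fell after sCT, Cdc42 and b-Actin rose on the deposited scale, and D-a-Tubulin, MTSS1 and Stathmin-1 were not called. This gives 6 of 9 antibodies called, against 55.0% of the panel. Of these, 4 were lower, against 33.6% of the panel, and 2 were higher, against 21.4%. The sCT and untreated samples did not overlap for 7 of the 9, against 85.9% of the panel. Nothing about these proteins is read from the counts, since the proteins were picked with the fold changes known. Their median log2 fold change was 0.01, against 0.02 over all antibodies. The set thus spanned most of the range of the panel, from the lowest log2 fold change of all, at -4.38, to Cdc42 at 0.40.

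**Figure D1:**
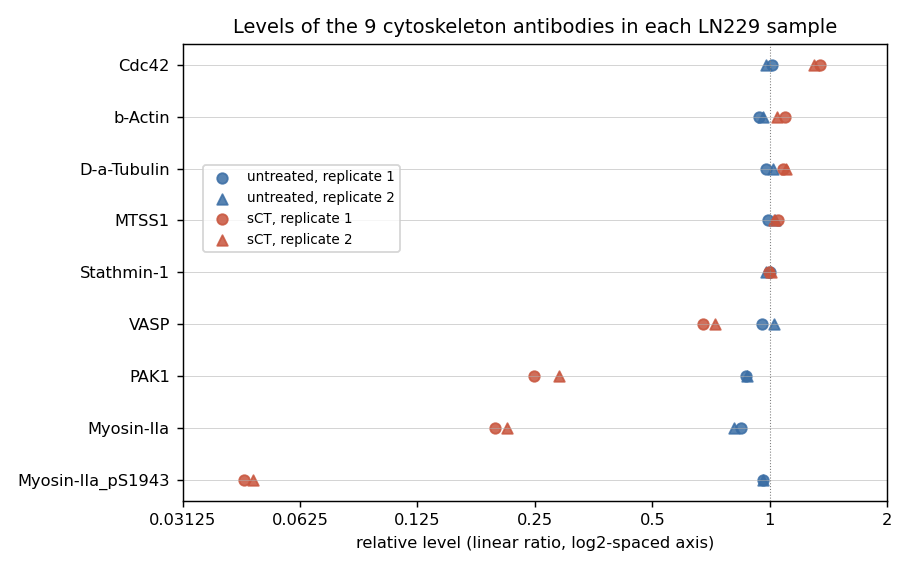
Relative level (linear ratio on a log2-spaced axis) of each of the 9 cytoskeleton antibodies in the 2 untreated and the 2 sCT-treated samples, with 1 point per sample. The untreated samples lie between 0.809 and 1.03 for every antibody, while the sCT-treated samples spread from 0.0450 for Myosin-IIa_pS1943 to 1.34 for Cdc42.

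Myosin IIa phosphorylated at S1943 had the furthest fall of the 440 antibodies. The level of Myosin-IIa_pS1943 was 0.958 and 0.962 in the untreated samples and 0.0450 and 0.0472 in the sCT-treated samples. The replicates of each group were close together and the groups lay far apart. This is a log2 fold change of -4.38 (SE 0.05), with 4.80% of the untreated level left. No untreated sample had a level below 0.1 for any antibody. After sCT the scaffold of cap-dependent translation, eIF4G, was also below 0.1 in both samples, and ARID1A, a subunit of a chromatin remodelling complex, was below it in 1, with 0.0917 and 0.116.

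Total myosin IIa fell as well, but by less than its phosphorylated site. The Myosin-IIa antibody gave 0.846 and 0.809 in untreated cells and 0.198 and 0.212 after sCT. Neither sCT-treated sample came near the untreated ones. A log2 fold change of -2.01 (SE 0.06) left 24.8% of the untreated level, and the antibody ranked 7 of 440 from the furthest fall. A lower amount of the protein and poorer detection of it cannot be told apart from these levels.

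Within each sample, the site was set against the total by subtracting the log2 level of Myosin-IIa from that of Myosin-IIa_pS1943. Only the change of this difference between samples has a meaning, because the antibodies have separate scales. The difference was 0.18 and 0.25 in the untreated samples and -2.14 and -2.16 in the sCT-treated samples. It changed by -2.37 log2 units, which places the site, relative to the total, at 19.4% of its untreated value. This value rests on site levels of 0.0450 and 0.0472 after sCT, with signal over background unknown. Less of the phosphorylated site and poorer detection of it cannot be told apart from these levels. The groups did not overlap, and the exact permutation test (two-sided) gave p = 0.333, the smallest that 2 samples against 2 allow. Quantile normalization, which forces the samples to the same distribution, reduced the log2 fold changes to -2.63 for the site, -0.97 for the total and -1.65 for the difference between them, and the calls of both antibodies held.

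**Figure D2:**
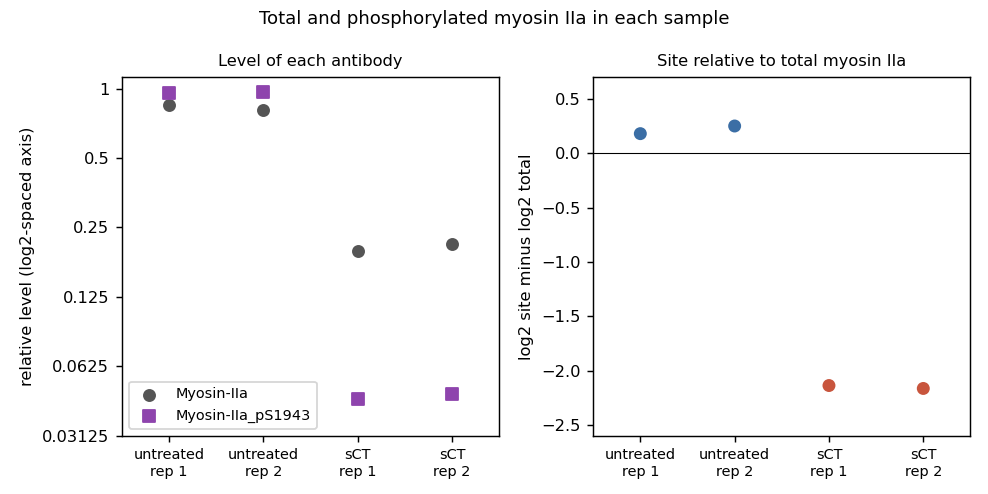
Left, relative level (log2-spaced axis) of the Myosin-IIa and Myosin-IIa_pS1943 antibodies in each of the 4 samples. Right, the log2 level of the site minus that of the total in each sample, which is 0.18 and 0.25 in untreated cells and -2.14 and -2.16 after sCT.

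The antibodies with a profile most like each myosin IIa antibody were found by the root mean square difference of log2 levels over the 4 samples, each antibody centred on its untreated mean. For Myosin-IIa_pS1943 the nearest was eIF4G at 0.24 log2 units, followed by ARID1A at 0.67 and S6 phosphorylated at S240/S244 at 1.595. With close replicates, this measure mostly restates the fold change and is not separate evidence of a shared profile. After the site, eIF4G and ARID1A were also the furthest falls of the panel, at ranks 2 and 3. For total Myosin-IIa the nearest were CREB phosphorylated at S133 at 0.07 and the mismatch repair protein MSH6 at 0.09. None of these 5 is a cytoskeletal protein.

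The heavy chain of myosin IIa is a protein of over 150 kDa, and its values were set beside a list of such proteins, which does not hold every large protein of the panel. The list had 33 rows besides the myosin IIa rows, of which 15 were lower and 3 higher (45.5% and 9.09%, against 33.6% and 21.4% of the panel), with a median log2 fold change of -0.11 against 0.02 over the panel. Its furthest fall was eIF4G, at 0.842 and 0.990 in untreated cells and 0.0459 and 0.0606 after sCT (log2 fold change -4.11, SE 0.16). Other rows of the list stayed near their untreated level, among them the ATM kinase at 0.11 (SE 0.05) and EGFR at -0.07 (SE 0.04), neither of them called. The list was set by protein name, and not every row on it is a chain of over 150 kDa. For example, IR-b, the insulin receptor beta chain, is smaller than that by itself. It rose by 0.59 (SE 0.04). Notch3 rose by 0.33 (SE 0.05), although the rise of Notch3 was not called with loading control centring. Of the 88 antibodies to phosphorylated sites on the panel, 42 were lower and 9 higher, which is 47.7% and 10.2%. The part of protein size or of phosphorylation in general in the fall of myosin IIa was not tested.

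PAK1, the kinase that Cdc42 activates, fell nearly as far as total myosin IIa. Its level was 0.871 and 0.876 in untreated cells and 0.249 and 0.289 after sCT. The untreated samples were almost the same, and the sCT-treated samples were both far below them although further apart. PAK1 had a log2 fold change of -1.70 (SE 0.08), which left 30.7% of the untreated level, and ranked 15 of 440 from the furthest fall. Under quantile normalization the log2 fold change was -0.83, still called. The nearest profiles to PAK1, by the same measure, were the repair protein XPA at 0.02 log2 units, the transcription factor FOXO3 at 0.04 and the damage response protein 53BP1 at 0.05.

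PAK4, a related kinase that the choice by name left out and that was added after its values were seen, gave 1.0004 and 0.782 in untreated cells and 1.01 and 0.848 after sCT. The groups overlapped. Its log2 fold change was 0.06 (SE 0.15), with a 95% interval from -0.33 to 0.46, an interval that leaves out falls of the size seen for PAK1. The difference between the PAK kinases was not tested itself, and PAK4 varied more between replicates than any of the cytoskeleton antibodies.

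Cdc42 moved in the other direction from PAK1. Its level was 1.02 and 0.979 in untreated cells and 1.34 and 1.30 after sCT, so that both sCT-treated samples were higher than both untreated ones. Its log2 fold change of 0.40 (SE 0.05) is 132% of the untreated level and rank 27 of 440 from the furthest rise. Cdc42 was called with each of the 4 samples left out in turn, with log2 fold changes between 0.38 and 0.43. Its rise was not called when samples were centred on loading controls, where the log2 fold change was 0.20 (SE 0.15). The antibody detects the total protein and does not separate the GTP-bound form, which is the active one.

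VASP, the filament-extending protein, fell to a smaller extent. Its level was 0.955 and 1.03 in untreated cells and 0.672 and 0.723 after sCT. The groups were apart, with a gap wider than the difference between replicates. A log2 fold change of -0.51 (SE 0.06) left 70.4% of the untreated level and put VASP at rank 95 of 440 from the furthest fall. Quantile normalization gave -0.31 and loading control centring -0.71, and VASP was called under both and with each replicate left out in turn.

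**Figure D3:**
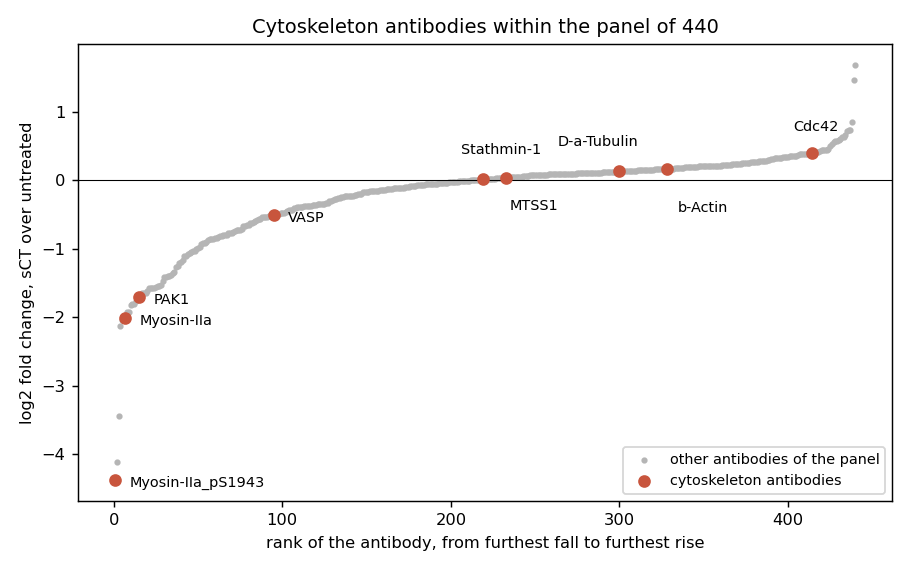
Log2 fold change (sCT over untreated) of all 440 antibodies, ordered from the furthest fall to the furthest rise, with the 9 cytoskeleton antibodies marked. Myosin-IIa_pS1943 is at rank 1, Myosin-IIa at 7, PAK1 at 15 and VASP at 95, and the other 5 lie in the flat middle or, for Cdc42, at the upper end.

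The rows for structural proteins, b-Actin and D-a-Tubulin, changed little. b-Actin, which builds the filaments, gave 0.939 and 0.962 in untreated cells and 1.09 and 1.05 after sCT. The groups did not overlap, but the log2 fold change was only 0.17 (SE 0.05), and its adjusted p from limma was 0.0386. This call was lost whichever of the 4 samples was left out, with adjusted p between 0.0828 and 0.176 from limma, and under quantile normalization. With loading control centring the log2 fold change was -0.03 (SE 0.15), so the rise of b-Actin was not seen under that scaling.

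D-a-Tubulin gave 0.978 and 1.02 in untreated cells and 1.08 and 1.10 after sCT. The sCT-treated samples were again the higher ones, by a small margin. D-a-Tubulin had a log2 fold change of 0.13 (SE 0.05, 95% interval 0.01 to 0.25, adjusted p = 0.0724 from limma), and it was called only when eBayes was run with a trend and robust estimation. With loading control centring it was -0.07. The labels do not say whether this row covers all alpha-tubulin or a form of it, so total tubulin cannot be read from it.

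MTSS1 and Stathmin-1 had overlapping groups. The level of MTSS1, which links actin to the membrane, was 0.990 and 1.03 in untreated cells and 1.05 and 1.03 after sCT. Its log2 fold change was 0.04, with a 95% interval from -0.09 to 0.16. Stathmin-1, the microtubule destabilizer, gave 1.001 and 0.980 in untreated cells and 0.993 and 1.01 after sCT. Its log2 fold change was 0.01, with a 95% interval from -0.10 to 0.13. On the deposited scale these intervals leave out falls of the size of VASP, PAK1 or myosin IIa.

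How far a small rise can be read depends on the scaling of the samples, since beta-actin is itself a common loading control. A list of 10 loading controls that are none of the 9 antibodies had a median log2 fold change of 0.21, against 0.02 over the panel. Of these, 4 were called higher and 0 lower (40% and 0%, against 21.4% and 33.6% of the panel). GAPDH, the glycolytic enzyme, went from 0.828 and 0.712 to 1.11 and 1.17, and the chaperone HSP70 from 0.728 and 0.735 to 0.957 and 0.992. Not every control was steady between replicates, as LDHA gave 2.75 and 0.426 in untreated cells and 6.70 and 1.33 after sCT. Centring each sample on the median of these controls, each taken relative to its own mean, moved the median of all antibodies to -0.19 log2 units. The calls over the panel were then 156 lower and 13 higher, in place of 148 and 94. With this centring limma estimated a single variance for all antibodies, so that each of the 9 had the same SE of 0.15. The 4 antibodies that fell were called under each of these scalings, while neither Cdc42 nor b-Actin was called as higher with loading control centring.

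**Figure D4:**
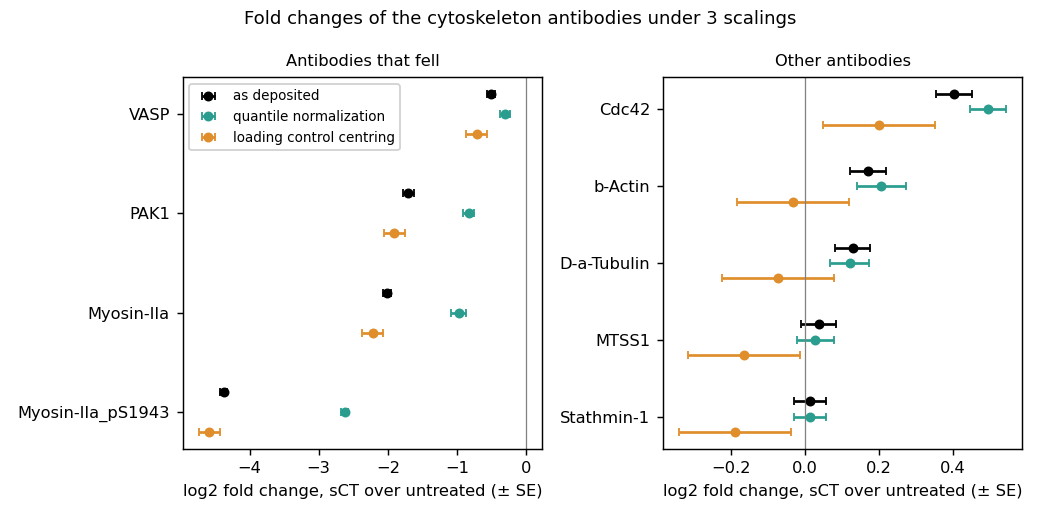
Log2 fold change (sCT over untreated, ± SE from limma) of the 9 cytoskeleton antibodies with the levels as deposited, with quantile normalization and with loading control centring, in 2 panels with different axes. The antibodies that fell stay below 0 under all 3, and b-Actin, D-a-Tubulin, MTSS1 and Stathmin-1 lie below 0 only with loading control centring.

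Other proteins of actin structure and cell adhesion did not share a direction. Of 23 antibodies on a list of such proteins, 7 were lower and 7 higher on the deposited scale (30.4% each, against 33.6% and 21.4% of the panel), with a median log2 fold change of 0.03. Quantile normalization gave 2 lower and 8 higher, and loading control centring 9 lower and 1 higher. The panel moved with the scaling too, to 115 lower and 103 higher and to 156 and 13. The furthest fall was connexin-43, a gap junction protein, from 0.600 and 0.702 to 0.115 and 0.225 (log2 fold change -2.02, SE 0.33), although quantile normalization gave 0.25 and no call. Merlin, which links the membrane to actin and is the product of NF2, had a log2 fold change of -0.75 (SE 0.05) and was called as lower under every scaling. The furthest rises were SRC phosphorylated at Y527, its inhibitory site, at 0.58 (SE 0.09), and at Y416, its activating site, at 0.40 (SE 0.05), the latter not called with loading control centring. Vinculin, which anchors actin at adhesions and is also among the loading controls, was at 0.04 (SE 0.05) and was not called.

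A list on the microtubule side held 5 other antibodies, mostly to kinases of the mitotic spindle. Of these, 3 were lower and 0 higher, against 33.6% and 21.4% of the panel, with a median log2 fold change of -0.67, and the counts were 3 and 1 with quantile normalization and 4 and 0 with loading control centring. Aurora A went from 1.98 and 2.16 to 0.729 and 0.891 (log2 fold change -1.36, SE 0.11), and Aurora B had a log2 fold change of -0.81 (SE 0.08). The antibody to the phosphorylated Aurora kinases was at -0.30 and was not called. PRC1 phosphorylated at T481, a spindle midzone protein outside the list that was added after its values were seen, was called at -0.36. The microtubule-binding protein Tau had a log2 fold change of 0.12 (SE 0.07) and was called, as higher, with quantile normalization but not on the deposited scale or with loading control centring. The difference between Aurora A or Aurora B and the tubulin and stathmin antibodies was not tested.

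**Figure D5:**
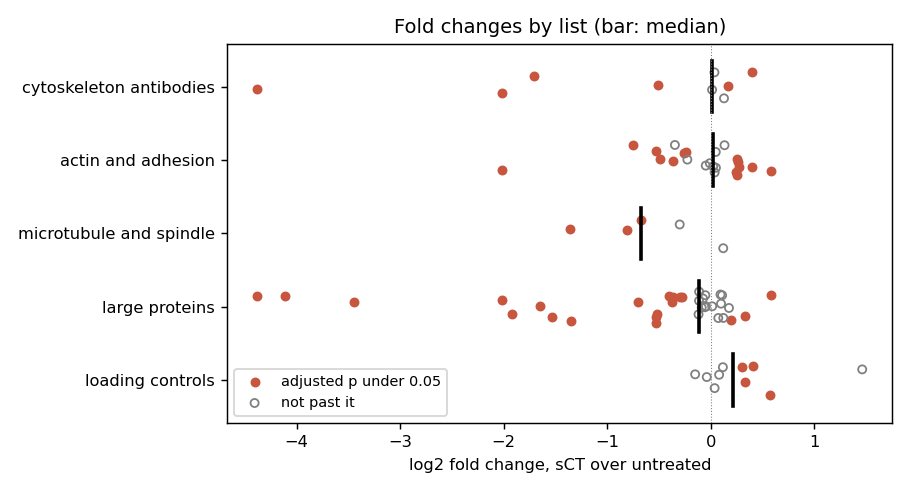
Log2 fold change (sCT over untreated) of each antibody in the 9 cytoskeleton antibodies and in 4 lists, with filled points for an adjusted p under 0.05 and a bar at the median of each list. Medians are 0.01 for the cytoskeleton antibodies, 0.03 for actin and adhesion, -0.67 for microtubule and spindle, -0.12 for large proteins with myosin IIa included, and 0.21 for loading controls.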

How the data were processed

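Protein levels of LN229 cells came from RPPA with 2 untreated and 2 sCT-treated samples, called biological duplicates. The authors deposited linear ratios for 440 antibodies, and the steps from spot intensities to these ratios are not given in the sources used here. Whether the duplicates were separate cultures is not stated, so p-values measure the spread between these samples. With no pseudocount or filter, log2 levels of the whole panel were fitted without covariates in limma 3.58.1 (R 4.3.3, lmFit and eBayes, tested on simulated data), and two-sided p-values were adjusted by Benjamini-Hochberg over all 440 antibodies. The fit had 2 residual and 2.59 prior degrees of freedom. The antibodies and lists were chosen with earlier results of these data known. Named were every row of the chosen proteins, the 2 furthest called falls and rises of each list, and the 3 nearest profiles of both myosin IIa antibodies, of which 1 is not reported here. The nearest profiles of PAK1, and PAK4, ATM, EGFR, Vinculin, LDHA, Tau, PRC1, the phosphorylated Aurora kinases and the proteins under the other observations, were added after their values were seen. Loading control centring put each sample at the median of 10 controls taken relative to their own means. The other alternatives were linear levels, quantile normalization, trend and robust eBayes, a filter on the lowest 10% of mean levels, the replicate number as a block, leaving out each replicate, and an unequal-variance test on linear levels.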

Additional observations from a re-analysis of the deposited data

How the results depend on the processing

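Calls of all 4 antibodies that fell held with linear levels, both other scalings, trend and robust eBayes, the replicate block and each replicate left out. Dropping the lowest 10% of the panel by mean level removed both myosin IIa antibodies and PAK1 themselves, so 3 cytoskeleton antibodies were called in place of 6. The unequal-variance test on linear levels called 1 antibody of the panel after adjustment, Myosin-IIa_pS1943, so that 1 was lower and 0 were higher, while 155 passed 0.05 before adjustment. It did not call the others, whose differences of linear levels were -0.62 for Myosin-IIa, -0.60 for PAK1, -0.29 for VASP, 0.32 for Cdc42 and 0.12 for b-Actin. Loading control centring put b-Actin at -0.0332, D-a-Tubulin at -0.0739, MTSS1 at -0.17 and Stathmin-1 at -0.19 log2 units, none of them called. It put Cdc42 at 0.20 with no call, and left 13 antibodies of the panel higher. Quantile normalization put b-Actin at 0.21 with no call and the myosin IIa site minus total at -1.65. Trend and robust eBayes called D-a-Tubulin at 0.13. With each replicate left out, 148 to 214 antibodies of the panel were called and 38 to 76 were higher, with 242 and 94 on all samples. The count of all calls moved by over 1.5 times without sCT replicate 1 (148) or sCT replicate 2 (158), and that of higher calls also without untreated replicate 2 (55). The log2 fold change was between 0.14 and 0.20 for b-Actin, which was called in none of these, and between -0.0012 and 0.0294 for Stathmin-1. With the replicate number as a block, b-Actin kept its log2 fold change of 0.17 but was not called (adjusted p = 0.0608 from limma), and no other call of the 9 changed. The differences between replicates 1 and 2 correlated across antibodies at r = 0.586 between the groups, but the labels give no more than a shared number.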

Other observations

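The panel held further antibodies to regulators of actin and adhesion signalling outside the lists, picked after their values were seen. PTPN12, a tyrosine phosphatase that acts on adhesion proteins, fell from 0.799 and 0.772 in untreated cells to 0.224 and 0.237 after sCT (log2 fold change -1.77, SE 0.05, and -0.53 with quantile normalization). HMHA1, a GTPase-activating protein, had a log2 fold change of -0.84 (SE 0.07), with levels of 0.948 and 0.997 before and 0.517 and 0.571 after. CSK, the kinase of the inhibitory site of SRC, was at 0.21 (SE 0.05) on the deposited scale and at 0.0097 with loading control centring. The exchange factors PREX1 and VAV1, which load small GTPases with GTP, were at -0.02 (SE 0.04) and 0.0008 (SE 0.09), and neither was called. MYH11, the smooth muscle myosin heavy chain and a relative of MYH9, gave 1.07 and 0.854 in untreated cells and 0.977 and 0.911 after sCT. Its groups overlapped, and its log2 fold change was -0.02, with a 95% interval from -0.34 to 0.30.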
